A study of Mus musculus with 96 samples.

Results

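Lysosomes are the acidic organelles in which proteins, glycans and lipids are broken down. The 35 genes described here encode lysosomal hydrolases, lipid carriers, membrane proteins, subunits of the proton pump that acidifies the organelle, and TFEB, a transcription factor of lysosomal genes. They were taken by symbol from a table of 21990 genes, of which 20155 have values, and all 35 have values in every library. By role they comprise 9 cysteine proteases (8 cathepsins and legumain), 3 aspartic or serine proteases, 8 glycosidases, 7 lipid hydrolases or lipid carriers, 4 membrane glycoproteins or channels, 3 proton pump subunits and 1 transcription factor.

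RNA sequencing was done on islets and liver of the same 48 male C57BL/6N mice. The mice, bought at 4 weeks of age, received a high-fat diet with 60% of energy from fat (HFD) or a chow diet with 13.5% fat (CD). Tissue was taken after 4, 8, 12, 16, 20 or 24 weeks on the diet, from 4 mice per diet and week, which gives 96 libraries in 24 groups of 4 separate mice. Diet is the only treatment, and the labels name no genetic change. Values are FPKM, fragments per kilobase of transcript scaled to the mapped fragments of the library, which can be compared between genes. Read counts were not used here, so the depth behind a single value is unknown.

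Lysosomal hydrolases are made in the endoplasmic reticulum, tagged with mannose 6-phosphate and sorted to lysosomes, where many are cut into their active forms. Macrophages are rich in lysosomes and express many of these genes strongly, while hepatocytes use lysosomes to degrade lipid droplets and glycogen and beta cells use them to degrade insulin granules. Lysosomal genes often carry copies of a short element, the CLEAR element, to which TFEB and its relatives bind and which contains the letters CACGTG.

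The differences between diets were tested by limma on log2(FPKM + 1). A difference was called at a Benjamini-Hochberg adjusted p under 0.05 over all genes tested, with no minimum fold. Genes needed at least 1 FPKM in at least 4 libraries of a fit. Fold changes on this scale understate the change of low genes.

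Both tissues hold several cell types. The islet libraries expressed beta cell markers at 10.51 to 11.24 and liver libraries hepatocyte markers at 11.15 to 11.91 (mean log2(FPKM + 1) of each list), the defining markers of the labelled tissues. Acinar cell markers were at 8.6 to 13.65 in islet libraries. In 5 liver libraries the acinar list exceeded 1.5 (CD304 and CD306 at week 12, CD407 at week 16, HFD616 and HFD617 at week 24), whereas all others reached at most 0.71. Liver library HFD517 at week 20 stood at 4.27 in genes of lipid-associated macrophages, against at most 3.07 in the others. In islets, leukocyte markers exceeded 2 in HFD113 at week 4, CD407 at week 16, and CD606 and CD608 at week 24, against at most 1.88 elsewhere. Results are given with and without these libraries where a count changes by more than 1.5 times. In whole tissue, fewer cells of a type and less RNA per cell cannot be told apart.

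Promoter sequences of the members with the largest diet response in liver, and of the paralogs Lamp1 and Lamp2, are shown first. Ctsd and Mcoln1 were added after the search because their windows hold the CACGTG letters. Each line gives the 100 bases before a RefSeq start on GRCm38.p6, 5′ to 3′ on the gene's strand, with CACGTG in capitals.
Ctss, chr3:95526686-95526785, plus strand: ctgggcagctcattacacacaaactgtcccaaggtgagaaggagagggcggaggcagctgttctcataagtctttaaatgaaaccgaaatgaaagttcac
Hexa, chr9:59539440-59539539, plus strand: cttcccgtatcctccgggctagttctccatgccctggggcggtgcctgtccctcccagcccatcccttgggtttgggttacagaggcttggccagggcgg
Lgmn, start 1 of 2, chr12:102439729-102439828, minus strand: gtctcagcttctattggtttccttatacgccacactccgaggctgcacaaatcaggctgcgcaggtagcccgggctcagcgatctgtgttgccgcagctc
Lgmn, start 2 of 2, chr12:102439093-102439192, minus strand: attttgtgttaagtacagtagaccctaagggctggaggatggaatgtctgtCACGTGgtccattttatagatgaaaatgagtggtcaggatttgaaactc
Psap, start 1 of 2, chr10:60277528-60277627, plus strand: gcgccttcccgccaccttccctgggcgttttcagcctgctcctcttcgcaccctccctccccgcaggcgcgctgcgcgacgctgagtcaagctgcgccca
Ppt1, chr4:122836127-122836226, plus strand: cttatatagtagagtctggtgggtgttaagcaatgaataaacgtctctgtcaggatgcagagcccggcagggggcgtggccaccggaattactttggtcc
Lamp1, chr8:13159061-13159160, plus strand: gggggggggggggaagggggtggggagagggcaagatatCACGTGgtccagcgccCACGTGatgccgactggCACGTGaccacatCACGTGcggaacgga
Lamp2, chrX:38456461-38456560, minus strand: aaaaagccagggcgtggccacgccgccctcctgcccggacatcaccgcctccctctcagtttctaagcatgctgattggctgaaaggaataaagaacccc
Ctsd, chr7:142387828-142387927, minus strand: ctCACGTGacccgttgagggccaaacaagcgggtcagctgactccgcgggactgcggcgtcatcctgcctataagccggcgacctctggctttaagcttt
Mcoln1, chr8:3500419-3500518, plus strand: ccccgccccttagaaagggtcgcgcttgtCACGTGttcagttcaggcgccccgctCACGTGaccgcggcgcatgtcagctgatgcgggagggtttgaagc
Windows of 300 bases (250 before to 50 after the start) were found for 30 of the 35 members. CACGTG, which reads the same on both strands, occurred in 11 of these 30 members (36.7%: Atp6v0d1, Ctsa, Ctsd, Ctsl, Gaa, Gla, Glb1, Lamp1, Lgmn, Mcoln1 and Naglu), against 8.09% of 27025 genes and 7.15% of 32851 windows of the same length. The longer TCACGTGA, which contains it, occurred in 5 members (16.7%: Atp6v0d1, Ctsa, Ctsd, Gla and Mcoln1), against 1.12% of genes and 0.974% of windows. Lamp1 holds 4 copies of CACGTG in the bases shown and Mcoln1 holds 2, whereas the stretches of Ctss, Hexa, Psap, Ppt1 and Lamp2 hold none. A match is a description of the letters and not of a bound site.

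In CD mice, the most abundant members differed between the tissues. In islets, Psap, the precursor of the saposins that present glycolipids to their hydrolases, was highest with a median of 541 FPKM over 24 mice (lowest 456, highest 719). It was followed by the membrane glycoprotein Lamp1 (median 249 FPKM), the aspartic protease Ctsd (154 FPKM), the cysteine protease Ctsb (116 FPKM), the proton pump accessory subunit Atp6ap1 (112.8 FPKM) and the membrane glycoprotein Lamp2 (between 81.5 and 111.2 FPKM). In liver, Ctsb led with a median of 345 FPKM (lowest 247, highest 402), ahead of the endopeptidase Ctsl (319 FPKM), Lamp1 (286 FPKM), Lamp2 (255 FPKM), Psap (182 FPKM), Ctsd (169.5 FPKM) and the exopeptidases Ctsh (153.5 FPKM) and Ctsz (149.8 FPKM). Medians exceeded 10 FPKM for 27 members in islets and for 30 in liver. Ctsk, a collagen-degrading cathepsin typical of osteoclasts, had a median of 0.495 FPKM in islets and 0.345 FPKM in liver. Atp6v0d2, a proton pump isoform also typical of osteoclasts, was listed at 0 in 14 of 24 CD islet libraries and had a median of 1.34 FPKM in CD liver.

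**Figure D1:**
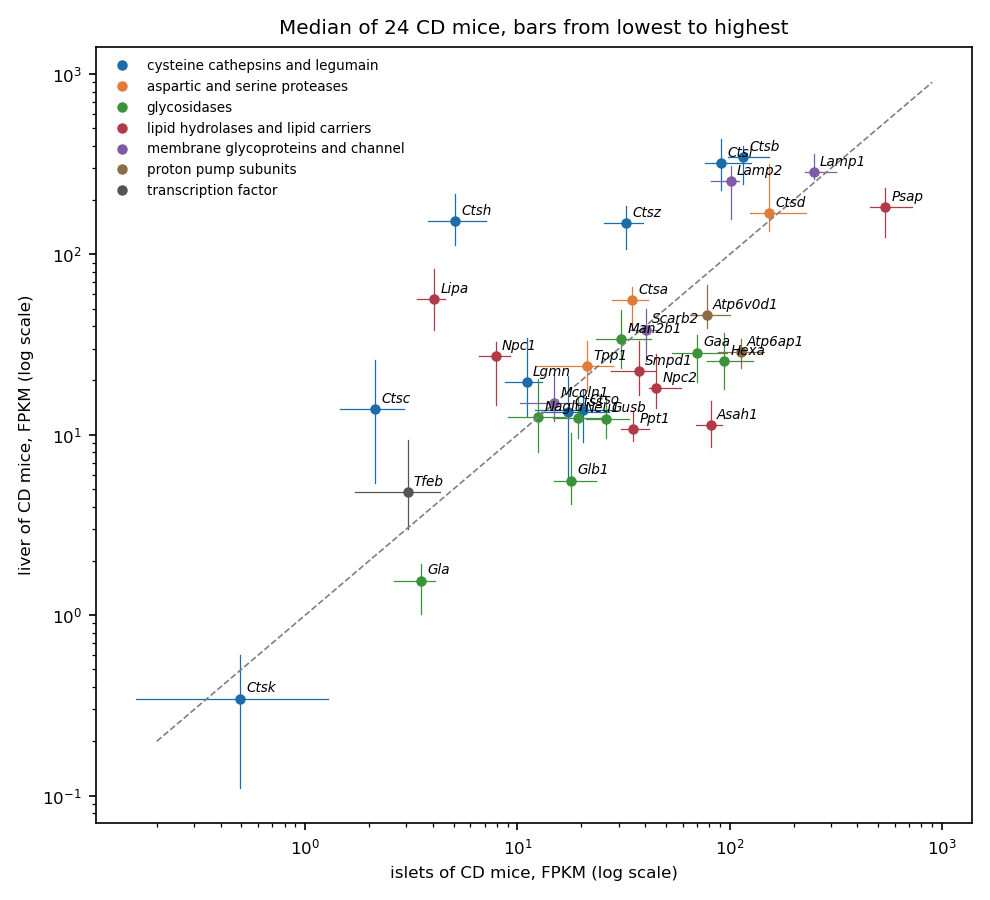
Median FPKM of 24 CD mice in islets (x axis, log scale) against liver (y axis, log scale) for the members by role, with bars from the lowest to the highest mouse and a dashed line of equal values. Ctsh, Lipa, Ctsc and Ctsz lie above the line, and Asah1, Atp6ap1 and Hexa lie below it, whereas Mcoln1 and Naglu lie on it. Atp6v0d2, with a median of 0 FPKM in islets, is not drawn.

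In the test between the tissues of the 24 CD mice, 16 of the 35 members (45.7%) were higher in liver and 17 (48.6%) were lower. Among all 13346 genes tested, 28.5% were higher and 66.5% lower in liver, and the median difference was -0.64 for all genes and 0.01 for the members. The cathepsins divided by gene. Ctsh ranged from 3.80 to 7.10 FPKM in islets and from 112.7 to 217.2 FPKM in liver, a log2 difference of 4.67 ± 0.05 (SE, adjusted p = 2.2e-78). Lipa, the acid lipase that frees cholesterol and fatty acids from lipoproteins and lipid droplets, ranged from 3.36 to 4.54 FPKM in islets and from 38.1 to 83.5 FPKM in liver (log2 difference 3.55 ± 0.07). No islet library reached the lowest liver library for either gene. Ctsz and Ctsc, exopeptidases that trim protein ends, each differed by 2.17, Ctsl by 1.70 and Ctsb by 1.48 in the same direction, together with Npc1 (1.60), the membrane protein that exports cholesterol from lysosomes.

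The members that were lower in liver included glycosidases and lipid enzymes and carriers. Asah1, the acid ceramidase, ranged from 69.1 to 91.7 FPKM in islets and from 8.55 to 15.4 FPKM in liver, a log2 difference of -2.76 ± 0.05 (adjusted p = 4.4e-64). Hexa, the alpha subunit of beta-hexosaminidase, had a median of 94.1 FPKM in islets and 25.5 FPKM in liver (log2 difference -1.91 ± 0.06). In all, 6 of the 8 glycosidases and 5 of the 7 lipid enzymes and carriers were lower in liver. These shares are not far from the 66.5% of all genes that were lower there. Among these members were Ppt1 (-1.62), which removes palmitate from proteins, Psap (-1.60) and the beta-galactosidase Glb1 (-1.46). The acid alpha-glucosidase Gaa (-1.33), the cholesterol carrier Npc2 (-1.29) and the beta-glucuronidase Gusb (-1.03) followed. Mcoln1, a calcium channel of the lysosomal membrane, and Naglu, which degrades heparan sulfate, were not called (both 0.01). The levels between tissues depend on the scale, because Ins1 and Ins2 made up 23.5% to 34% of the summed FPKM × length in CD islets. With insulin left out of the islet total, the median of all genes moved by -0.37 and the members split into 12 higher and 23 lower, against 21.5% and 74.7% of all genes, and Ctsd, Lamp1, Man2b1 and Tpp1 changed from higher to lower. With median ratio scaling, the median of all genes moved by 0.35 and the members split into 19 higher and 14 lower, against 38% and 56.3% of all genes, and Scarb2 changed from lower to higher.

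The first question about diet was how HFD differed from CD in liver when all 6 weeks were averaged. In liver, 20 of 35 members (57.1%) were higher and 2 (5.71%) were lower in HFD mice. The higher members include Ctsk, which passed the filter only through 4 HFD libraries. Among all 10879 genes tested, 35.8% were higher and 6.78% lower, and the median log2 difference was 0.125 for the members and 0.077 for all genes. With median ratio scaling, which moved the median of all genes by -0.073, 16 members were higher and 5 lower, and among all genes 2333 were higher and 1835 lower against 3892 and 738 without it. Each of the members named below as higher in liver kept its call under that scaling, except Asah1, Gla, Smpd1 and Atp6v0d1.

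Among the proteases, 9 of 12 (with Ctsk among the 9) were higher in HFD liver and none lower, against 35.8% and 6.78% of all genes. Ctss, a cathepsin of antigen-presenting cells that processes the invariant chain of MHC class II, differed by 0.74 ± 0.10 (SE, adjusted p = 3.4e-07). It was measured at 13.56, 11.89, 10.33 and 8.36 FPKM in the 4 CD mice at week 16 and at 15.87, 29.83, 43.44 and 29.81 FPKM in the 4 HFD mice. The groups did not overlap at weeks 4, 12, 16 and 20 and did at weeks 8 and 24. At week 20 the CD mice lay between 16.57 and 18.21 FPKM, and the HFD mice were at 32.53, 34.92, 65.66 and 28.31 FPKM, with HFD517 highest. The mean was 2.69-fold that of CD at week 16 and 2.32-fold at week 20, but 1.21-fold at week 24. Lgmn, an asparaginyl endopeptidase that cuts other lysosomal proteases into mature chains, differed by 0.48 ± 0.08. At week 16 its CD mice were at 17.81, 16.54, 16.54 and 15.17 FPKM and its HFD mice at 20.21, 29.60, 31.23 and 31.22 FPKM, again without overlap (1.70-fold).

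Ctsz (0.33 ± 0.05), Ctsd (0.32 ± 0.06), Ctsb (0.28 ± 0.05), the tripeptidyl peptidase Tpp1 (0.26 ± 0.04), the carboxypeptidase Ctsa (0.25 ± 0.05), which also stabilises Glb1 and Neu1, and Ctso (0.25 ± 0.05), a little studied cathepsin, were also higher. Ctsz at week 20 was at 123.6, 149.5, 141.7 and 150.2 FPKM in CD mice and at 240.8, 232.9, 280.3 and 185.0 FPKM in HFD mice (1.66-fold, adjusted p = 0.027). Every HFD mouse was above every CD mouse. Ctsk was called as well (0.24 ± 0.04), but at levels of at most 1.27 FPKM, and it passed the filter through 4 HFD libraries, so its call rests on the group in which it is high. Leaving out any of these 4 libraries removed it from the test. The remaining proteases Ctsc (-0.11 ± 0.10), Ctsh (-0.04 ± 0.04) and Ctsl (-0.02 ± 0.06) were not called.

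Among the glycosidases, 3 of 8 were higher in HFD liver, a share near the 35.8% of all genes. Hexa differed by 0.73 ± 0.07 (adjusted p = 8.0e-11) and had the largest number of weekly calls. Its 4 CD mice were at 23.79, 19.40, 20.15 and 19.28 FPKM at week 8 and its HFD mice at 38.06, 42.13, 46.01 and 31.11 FPKM. At week 20 the CD mice were at 23.91, 27.11, 22.83 and 22.97 FPKM and the HFD mice at 57.56, 49.37, 65.74 and 39.93 FPKM, a 2.20-fold difference of means. At week 4 the groups overlapped (means of 27.4 and 27.2 FPKM), and in each of the 5 later weeks all HFD mice were above all CD mice. Man2b1, the alpha-mannosidase, differed by 0.23 ± 0.06 and the alpha-galactosidase Gla by 0.13 ± 0.04. The others lay between -0.05 (Naglu) and 0.13 (Gusb) and were not called.

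Of the 7 lipid hydrolases and carriers, 5 were higher in HFD liver, against 35.8% of all genes. Psap differed by 0.48 ± 0.06 (adjusted p = 1.5e-07), with CD mice at 197.5, 211.7, 140.1 and 180.8 FPKM and HFD mice at 235.3, 285.0, 272.9 and 281.6 FPKM at week 16. Ppt1 differed by 0.46 ± 0.04 (adjusted p = 5.4e-12), the lowest adjusted p among the members. Its CD mice were at 11.43, 10.75, 10.09 and 9.29 FPKM at week 12 and its HFD mice at 17.06, 17.21, 15.42 and 16.76 FPKM. As for Hexa, the Ppt1 groups overlapped at week 4 and were separate in all 5 later weeks, with ratios of means between 1.34 and 1.63. Lipa differed by 0.33 ± 0.08, with 48.75, 58.41, 56.25 and 49.90 FPKM in CD mice and 80.39, 96.16, 62.22 and 89.46 FPKM in HFD mice at week 12. Asah1 (0.16 ± 0.06) and the acid sphingomyelinase Smpd1 (0.12 ± 0.04) were called at small differences, whereas the cholesterol exporters Npc1 (0.05 ± 0.08) and Npc2 (0.04 ± 0.06) were not.

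The membrane proteins did not move together in liver. Lamp1 was higher by 0.29 ± 0.04 (adjusted p = 2.2e-08), with 291.3, 266.2, 279.2 and 265.9 FPKM in CD mice and 375.2, 386.2, 447.2 and 340.1 FPKM in HFD mice at week 20. Its paralog Lamp2, which also serves in chaperone-mediated autophagy, differed by 0.09 ± 0.04 (adjusted p = 0.079). Scarb2, the receptor that carries glucocerebrosidase to lysosomes, was lower by 0.13 on the log2 scale (-0.13 ± 0.04, adjusted p = 0.010). At week 12 it was at 39.65, 42.04, 42.47 and 43.34 FPKM in CD mice and at 35.17, 31.75, 31.24 and 31.59 FPKM in HFD mice, without overlap, but its call was lost without week 12, 16 or 24. Of the proton pump subunits, Atp6ap1 (0.24 ± 0.04) and Atp6v0d1 (0.11 ± 0.04) were higher. Atp6v0d2 was lower (-0.28 ± 0.09, adjusted p = 0.015), with 1.46, 2.07, 2.59 and 2.32 FPKM in CD mice and 0.93, 0.75, 1.32 and 0.83 FPKM in HFD mice at week 20, and its call was lost without week 4 or week 20. Tfeb differed by -0.01 ± 0.07 and was at 3 to 9.3 FPKM in CD and 3.32 to 7.66 FPKM in HFD liver.

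The call of Asah1 was lost when any of the HFD libraries HFD212, HFD315, HFD517 and HFD616 was left out (0.14 or 0.15, adjusted p of 0.051 to 0.055). That of Atp6v0d1 was lost without CD101, CD106, CD208, CD601, HFD112, HFD416, HFD517 or HFD617 (0.09 or 0.10, adjusted p of 0.051 to 0.057). Without the 6 liver libraries that stand apart, Asah1, Atp6v0d1 and Smpd1 were not called, Lamp2 was, Ctsk was not tested, and 17 members were higher and 2 lower.

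**Figure D2:**
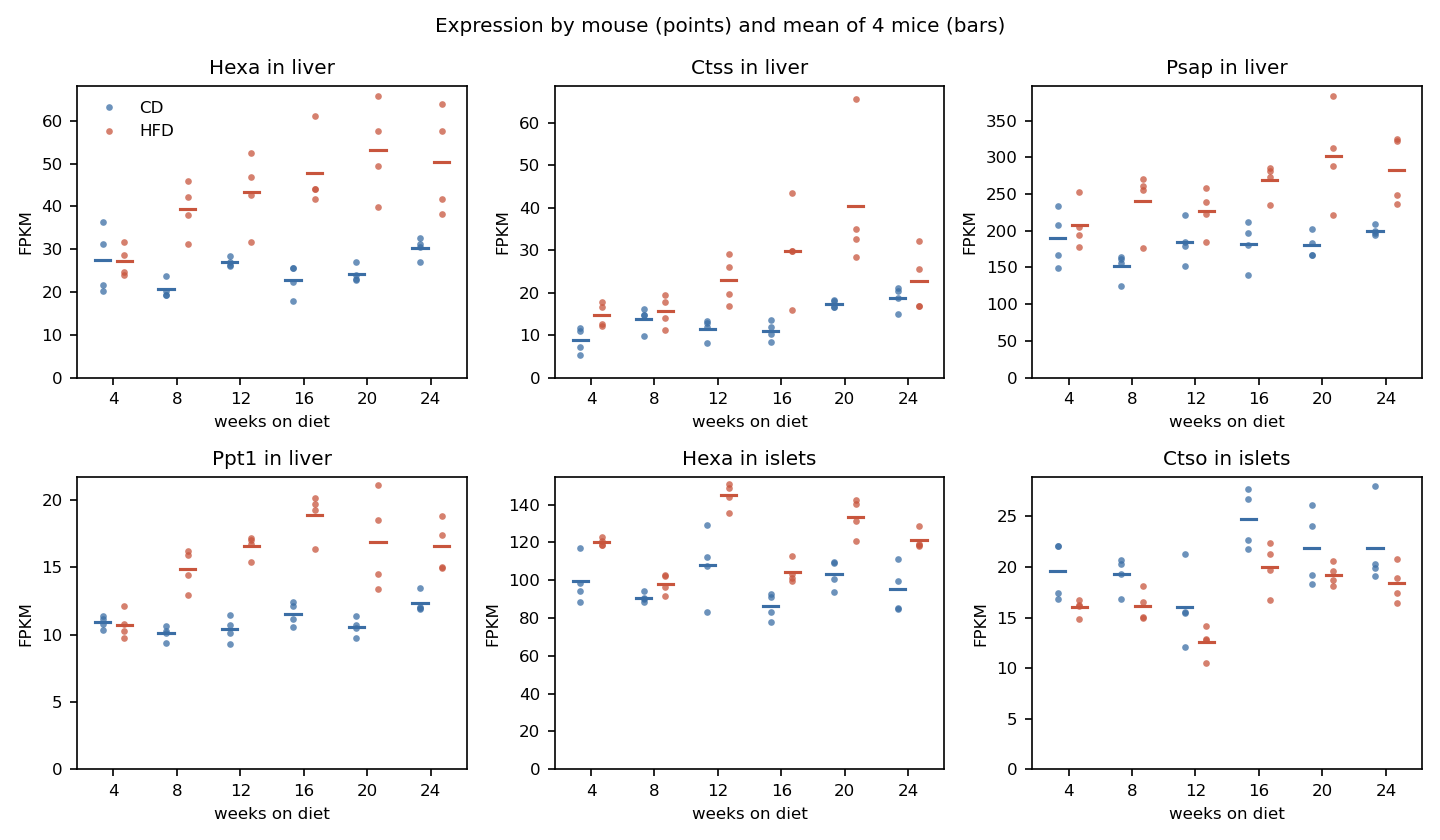
FPKM of each mouse (points) and the mean of 4 mice (bars) against weeks on diet for Hexa, Ctss, Psap and Ppt1 in liver and for Hexa and Ctso in islets, with CD in blue and HFD in red. In liver, Hexa and Ppt1 overlapped between diets at week 4 and were separate from week 8 on, while Ctss came together again at week 24. In islets, the mean of Hexa was higher and that of Ctso lower in HFD mice at every week.

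Week by week, limma with 4 mice against 4 called no member in liver at week 4 (3 members at an unadjusted p under 0.05), where 0.0405% of all genes were called higher and 0.0101% lower. At week 8, 4 of 33 members (12.1%) were higher, against 6.17% of all genes (1.33% lower): Ctso, Hexa, Ppt1 and Psap. At week 12, 7 of 33 (21.2%) were higher, against 9.42%: Ctsb, Ctso, Ctss, Hexa, Lgmn, Lipa and Ppt1. Scarb2 was the 1 member lower (3.03%, against 1.22% of all genes). The week with the most calls was week 16, when 10 of 34 (29.4%) were higher, against 6.74% (0.682% lower): Ctsa, Ctsd, Ctss, Ctsz, Gusb, Hexa, Lamp1, Lgmn, Ppt1 and Psap. At week 20, Ctss, Ctsz, Hexa, Lamp1 and Psap (14.7%) were higher, against 1.73%, and Atp6v0d2 (2.94%) lower, against 0.746%. Atp6v0d2 passed the filter at that week through its 4 CD libraries, the group in which it is high. At week 24 no member was called (10 at an unadjusted p under 0.05), against 0.65% of all genes higher and 0.187% lower. The members' median difference was 0.01, 0.16, 0.13, 0.24, 0.23 and 0.17 at the 6 weeks in order, and that of all genes 0.09, 0.04, 0.11, 0.09, 0.07 and 0.06.

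Across the weeks, Hexa was called 4 times and Ctss, Psap and Ppt1 3 times each, all higher. A positive difference at every week was found for 12 members. The share of all genes with such a pattern was not counted, and the median of all genes was also positive at each week. With 3 libraries in a group, single weekly calls were often lost: of the 28 weekly calls in liver, those of Hexa at weeks 8, 16 and 20 and of Ppt1 at weeks 8, 12 and 16 were kept without any 1 library of the week. The count of members called rose to 17 at week 16 without HFD411 and to 12 at week 20 without HFD518, and it fell to 1 or 2 at weeks 8 to 20 without 1 of several others. The share of all genes called in these refits was not counted.

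**Figure D3:**
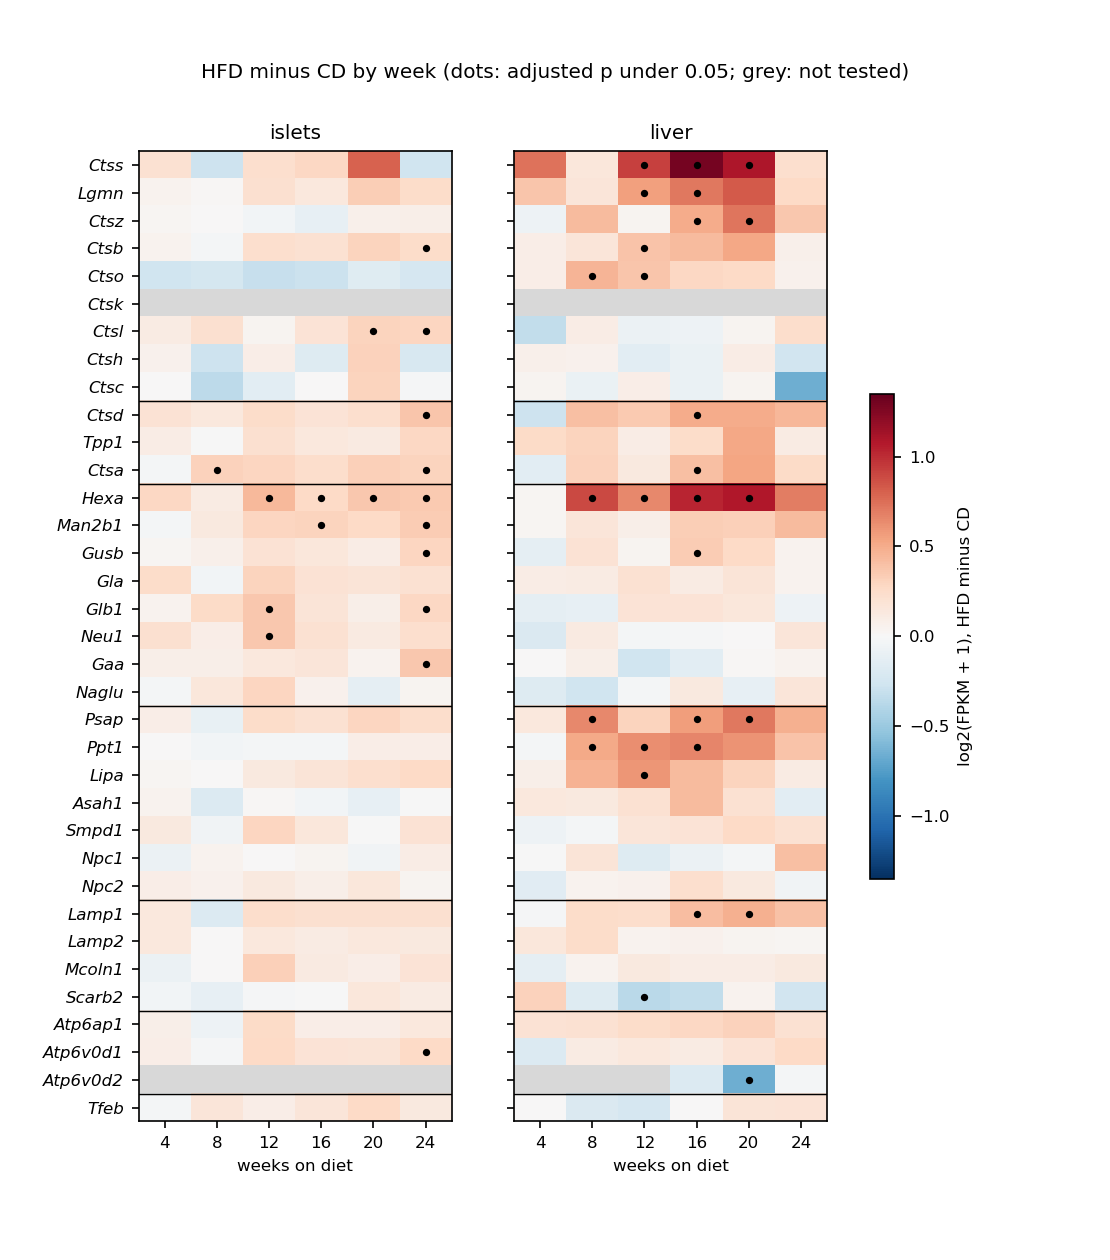
Log2(FPKM + 1) difference of HFD minus CD for each member (y axis, by role) and week (x axis) in islets and liver, from blue (lower in HFD) to red (higher). Dots mark an adjusted p under 0.05, and grey cells were not tested. The liver calls lie at weeks 8 to 20, and 10 of the 18 islet calls lie at week 24, against 2 at week 24 with median ratio scaling.

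Macrophage markers also differed between diets in liver. Of a list of 10 macrophage markers, all were above 0 in all 48 liver libraries. In HFD mice 8 were higher and none lower, against 35.8% and 6.78% of all genes, with a median difference of 0.52. The mean level of the list ranged from 2.25 to 3.54 in CD and from 2.5 to 4.43 in HFD libraries. Cd14 (0.79 ± 0.11) and Lyz2 (0.68 ± 0.12) led the list. Markers of lipid-associated macrophages were higher for 6 of 8 and lower for 1, from Mmp12 (1.39 ± 0.15) and Trem2 (1.09 ± 0.10) to Fabp5 (-0.73 ± 0.20). In liver the medians of Mmp12, Gpnmb and Itgax were 0.245, 0.105 and 0.21 FPKM. These genes therefore passed the filter through the libraries in which they are high. How many of those are HFD libraries was not counted. Of 6 Kupffer cell markers, 2 were higher, a share near that of all genes, and 1 was lower. Of 4 leukocyte markers tested 3 were higher. Of 7 stromal markers 6 were higher, with a median difference of 0.49, and no fit with the stromal list as a covariate was run. Beta cell markers in liver were lower for 3 of 4 tested (Iapp, Ins1 and Ins2), and no acinar marker was called. Ins2 was listed at 0 in 20 of 48 liver libraries, had a median of 7.2 FPKM and reached 2467 FPKM. The source of these reads in liver was not tested. Of 8 hepatocyte markers none was higher and 3 were lower, with Tat at -0.54 ± 0.15 and Fgb at -0.40 ± 0.12.

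With the level of the macrophage list as a covariate in the liver fit, chosen after seeing the data, 12 members (34.3%) were higher and 5 (14.3%) lower, against 19.5% and 6.57% of all genes. Ctsa, Ctsb, Ctsd, Gla, Lipa, Man2b1, Asah1, Smpd1 and Atp6v0d1 lost their calls, while Ctsh, Naglu and Npc2 became lower and Lamp2 became higher. The difference was 0.29 for Ctss, 0.13 for Lgmn and 0.28 for Psap in that fit, against 0.53 for Hexa and 0.39 for Ppt1.

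The relation was also measured within the diet and week groups, as the deviation of each mouse from the mean of its group. Over 48 livers, the list's term in that limma fit was called for 14 of 35 members (40%), all positive, against 7.9% positive and 0.12% negative among the 10869 genes tested outside the list. The median r was 0.45 for the members and 0.10 for these genes. Lgmn had r = 0.89 and rho = 0.89 and Ctss r = 0.85 and rho = 0.85, each with p = 1e-05 by permutation test, the smallest that 100000 permutations can give (limma adjusted p = 9.2e-11 and 3.4e-09). Without the 2 mice farthest from the median of the list, r was 0.88 and 0.85. Within CD and HFD mice alone, r was 0.87 and 0.91 for Lgmn and 0.93 and 0.81 for Ctss. Npc2 (r = 0.68), Ctsd (0.60), Psap (0.59), Ctsa (0.57), Glb1 (0.57) and Hexa (0.55) followed at lower values. Some members with a diet difference in liver had little or no relation with the list, such as Ctso (r = 0.01, permutation p = 0.94) and Tpp1 (r = 0.19, permutation p = 0.18). Ppt1 had r = -0.03 in CD mice and 0.55 in HFD mice, and Gla -0.52 and 0.66, a difference between diets that was not tested. Lamp2 (r = -0.27, permutation p = 0.067) and Ctsl (r = -0.11, permutation p = 0.46) had the lowest values. The permutations moved deviations between all 48 mice without regard to the groups whose means were taken out, so their p-values come out too small. The points share the library of each mouse, and FPKM divides every gene by the same library total.

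**Figure D4:**
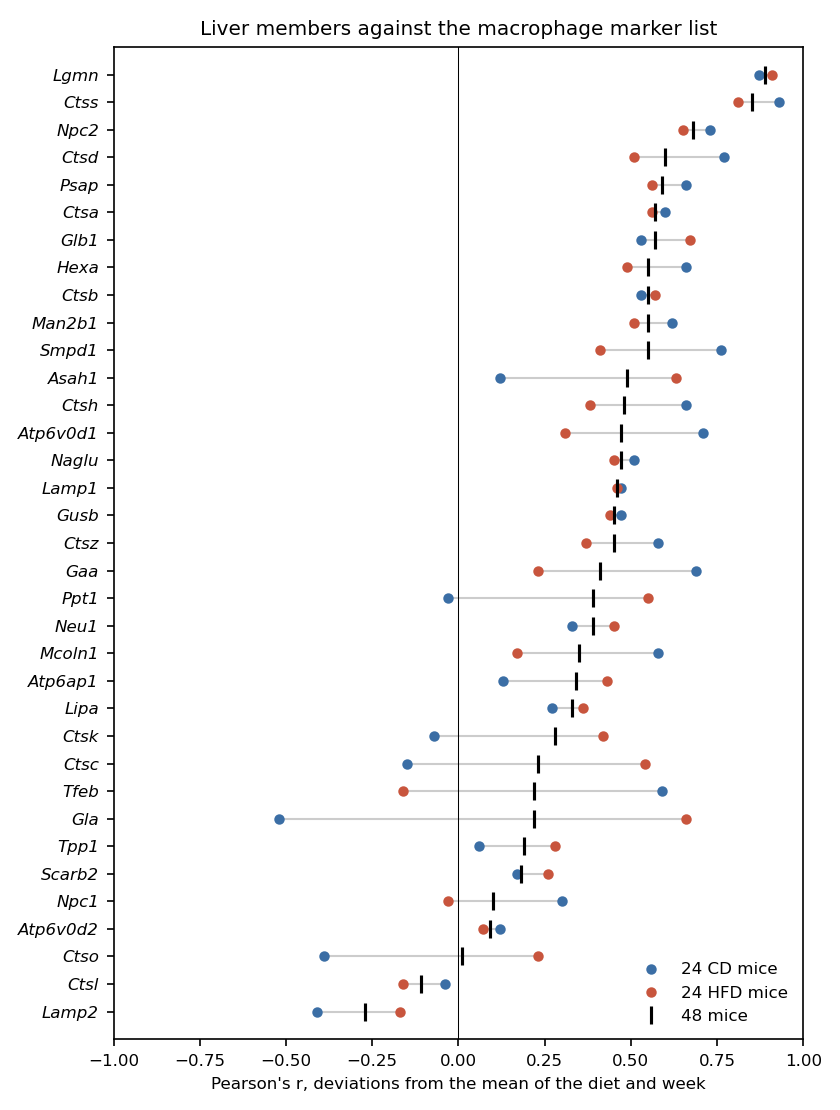
Pearson's r between each member and the macrophage marker list in liver (x axis) over 48 mice (black), 24 CD mice (blue) and 24 HFD mice (red), from deviations from the mean of each diet and week. Lgmn and Ctss stand at the top, at 0.89 and 0.85, while Lamp2 and Ctsl are below 0.

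In islets, the members' differences lay between -0.25 and 0.30 on the log2 scale. Over the 6 weeks, 23 of 33 members tested (69.7%) were higher and 1 (3.03%) lower in HFD mice, against 16.6% higher and 22% lower among all 12378 genes. The median difference was 0.14 for the members and -0.01 for all genes. With insulin left out of the islet total, which moved the median of all genes by 0.077, 29 members were higher and 1 lower, and among all genes 5275 were higher and 1390 lower against 2060 and 2722 with insulin. Ctsk and Atp6v0d2 stayed under the filter. Atp6v0d2 was listed at 0 in 14 CD and 3 HFD libraries and reached at most 0.20 FPKM.

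The glycosidases were the role with the most calls in islets, 7 of 8 higher (against 16.6% of all genes), all but Naglu (0.06 ± 0.03). Hexa differed by 0.30 ± 0.04 (adjusted p = 6.3e-09). At week 20 it was at 109.1, 109.7, 100.8 and 93.9 FPKM in CD mice and at 120.8, 131.2, 142.3 and 140.3 FPKM in HFD mice (1.29-fold), and the groups were separate at every week but week 8. Man2b1 differed by 0.22 ± 0.04, the sialidase Neu1 and Glb1 by 0.20 ± 0.03 each, Gla by 0.18 ± 0.03, Gaa by 0.15 ± 0.03 and Gusb by 0.14 ± 0.03. At week 12 Neu1 was at 19.17, 22.54, 21.36 and 19.43 FPKM in CD mice and at 25.80, 27.35, 25.86 and 28.02 FPKM in HFD mice, without overlap.

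All 3 aspartic and serine proteases were higher in HFD islets: Ctsa by 0.24 ± 0.03 (adjusted p = 1.4e-07), Ctsd by 0.23 ± 0.03 (adjusted p = 1.2e-08) and Tpp1 by 0.14 ± 0.04. Ctsd at week 24 was at 134.6, 132.9, 156.4 and 124.2 FPKM in CD mice and at 177.1, 192.2, 174.5 and 166.1 FPKM in HFD mice (1.30-fold). Among the cysteine proteases, Ctsl (0.19 ± 0.03), Ctsb (0.17 ± 0.03) and Lgmn (0.17 ± 0.05) were higher. Ctso was the 1 member that was lower (-0.25 ± 0.05, adjusted p = 0.00012). Its CD mice were at 26.77, 21.81, 27.70 and 22.66 FPKM and its HFD mice at 22.35, 21.27, 19.68 and 16.73 FPKM at week 16, and its HFD mean was lower at each of the 6 weeks. Those weekly groups overlapped except at week 4, and no single week was called for Ctso. Ctss (0.16 ± 0.09, adjusted p = 0.14), Ctsc, Ctsh and Ctsz were not called. At week 20 Ctss was at 14.42, 15.28, 20.56 and 20.86 FPKM in CD islets and at 19.33, 23.63, 41.79 and 49.65 FPKM in HFD islets, with HFD517 and HFD518 highest.

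Among the lipid enzymes and carriers, Psap (0.16 ± 0.03), Lipa (0.14 ± 0.04), Smpd1 (0.12 ± 0.03) and Npc2 (0.09 ± 0.03) were higher, whereas Ppt1 (0.01 ± 0.03), Npc1 (0.01 ± 0.03) and Asah1 (-0.05 ± 0.03) were not called. Lamp1 (0.14 ± 0.02), Lamp2 (0.11 ± 0.03), Mcoln1 (0.11 ± 0.03), Atp6v0d1 (0.16 ± 0.03), Atp6ap1 (0.10 ± 0.02) and Tfeb (0.13 ± 0.04) were higher, and Scarb2 (0.02 ± 0.03) was not called. No member called in islets over all weeks lost its call when any 1 library was left out. Without a whole week, Mcoln1 lost its call (week 12), as did Lipa (week 20 or 24), Npc2 and Tfeb (week 20).

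Cell type markers moved in the islet libraries too. Of 8 beta cell markers, 4 were higher and 2 lower in HFD islets, from Iapp (0.35 ± 0.04) to the glucose transporter gene Slc2a2 (-0.36 ± 0.09). All 6 alpha and delta cell markers were lower in HFD islets (median -1.07, with Gcg at -1.57 ± 0.10 and Sst at -1.49 ± 0.09). Of the 8 acinar markers 3 were lower, as were 2 of 4 ductal markers tested, and of 8 macrophage markers tested, 2 were higher and none lower (C1qa by 0.25 ± 0.07 and Adgre1 by 0.22 ± 0.05). Among all islet genes, 16.6% were higher and 22% lower. The macrophage list ranged from 2.01 to 2.64 in CD and from 1.74 to 3 in HFD islets. The Kupffer cell marker Clec4f was listed at 0 in 37 of 48 islet libraries. With the acinar list as a covariate, added after seeing the data, 20 members were higher and 2 lower, against 11.3% and 22% of all genes, Lipa, Npc2 and Tfeb lost their calls and Asah1 became lower. The part of the shares of alpha, delta and acinar cells in these differences was not tested beyond that fit.

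By week, no member was called in islets at week 4 (7 at an unadjusted p under 0.05 by limma), nor was any other gene, 0% higher and 0% lower. Ctsa was called at week 8 (3.03% of 33, against 0.602% of all genes higher and 4.67% lower). Glb1, Hexa and Neu1 were called at week 12 (9.09%, against 2.18% higher and 2.35% lower), Hexa and Man2b1 at week 16 (6.06%, against 3.3% higher and 5.15% lower) and Ctsl and Hexa at week 20 (6.06%, against 1.53% higher and 3.21% lower). At week 24, 10 of 33 members (30.3%) were higher, against 6.57% higher and 1.73% lower among all genes: Ctsb, Ctsl, Ctsd, Ctsa, Hexa, Glb1, Gusb, Man2b1, Gaa and Atp6v0d1. No weekly call was lower. In all, 11 members had a positive difference at all 6 weeks, among them Hexa, Ctsd, Ctsl, Glb1, Neu1 and Gaa. The share of all genes with such a pattern was not counted. The weekly counts moved with the scale and with single libraries. The insulin genes took 23.9% to 25% of the summed FPKM × length in CD and 31.6% to 36.9% in HFD islets at week 12, and 23.9% to 27.1% and 29.3% to 36.5% at week 16. With insulin left out, the median of all genes moved by 0.19 and 0.13 at these weeks, and 23 and 21 members were called, all higher (69.7% and 63.6%), against 27.6% and 27.5% of all genes higher. With median ratio scaling the count was 7 at week 12 and 2 at week 24 (6.06%, against 3.42% of all genes higher). It was also 2 at week 24 without the libraries that stand apart (against 2.3% of all genes higher). Ctsd at week 24 was the 1 weekly islet call kept without any 1 library. Without HFD511 the count at week 20 was 14, without CD306 that at week 12 was 8, without CD407 that at week 16 was 8, and without CD608 or HFD616 that at week 24 was 2. With 1 library left out, the share of all genes called was not counted.

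The diet effect was then compared between the tissues in 1 fit of all 96 libraries. It was larger in liver for 11 of 35 members (31.4%) and smaller for 6 (17.1%), against 35.5% and 8.42% of all 13346 genes. The members with the largest excess in liver were Ctss (0.57 ± 0.14), Ctso (0.50 ± 0.07, adjusted p = 2.0e-08), Ppt1 (0.45 ± 0.05, adjusted p = 7.1e-13) and Hexa (0.42 ± 0.08). For Ctso the directions were opposite, higher in HFD liver and lower in HFD islets. Ctsz (0.32), Lgmn (0.32), Psap (0.31), Asah1 (0.21), Lamp1 (0.15) and Atp6ap1 (0.14) followed. Ctsk (0.22) was called too, but it reached 1 FPKM in 4 HFD and no CD liver libraries and in 1 islet library of each diet, so it passed the filter through the group in which it is high. The effect was smaller in liver for Ctsl (-0.21 ± 0.07), Neu1 (-0.20 ± 0.05), Gaa (-0.19 ± 0.06), Glb1 (-0.16 ± 0.06) and Scarb2 (-0.14 ± 0.05), and for Atp6v0d2 (-0.34 ± 0.10), which was near 0 in islets. The split depended on the scale. With median ratio scaling 8 members were larger and 9 smaller in liver, against 26.9% and 15.1% of all genes. With insulin left out they were 7 and 10, against 21.9% and 15.9%, and Asah1, Atp6ap1 and Lamp1 lost their calls under both. For Ctsa, Man2b1 and Smpd1 the difference between tissues was 0.01 ± 0.06, 0.01 ± 0.07 and 0.00 ± 0.05.

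**Figure D5:**
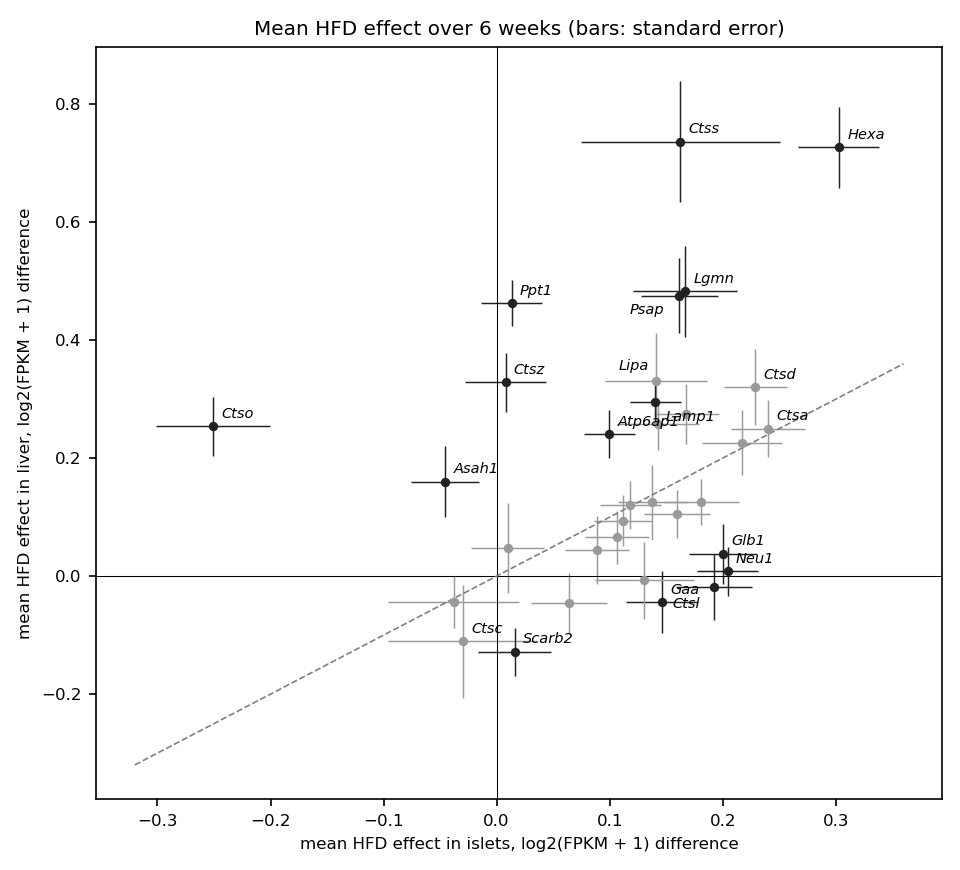
Mean HFD effect over the 6 weeks in islets (x axis) against liver (y axis), as log2(FPKM + 1) differences with standard errors, with a dashed line of equal effects. Black points are members whose effect differed between the tissues. Ctss and Hexa lie at the top with 0.74 and 0.73 in liver, Ctso lies left of 0 in islets, and Glb1, Neu1 and Ctsl lie near 0 in liver.

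Whether the diet effect changed over time was tested as the mean effect of the late weeks (16, 20, 24) less that of the early ones (4, 8, 12). Limma called no member in either tissue. At an unadjusted p under 0.05 there were 7 members in islets and 10 in liver. Among all genes, 2.19% were higher late and 0.969% lower in islets, and 0.138% and 0.0368% in liver. The lowest adjusted p in islets was that of Lamp1 (0.15 ± 0.04, adjusted p = 0.056), and in liver that of Ctsz (0.40 ± 0.10, adjusted p = 0.085). Hexa differed by 0.42 ± 0.14 in liver, with an adjusted p of 0.33.

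Whether a member moved together in both tissues of a mouse was tested next. The deviations from the group means in the 2 tissues of the same 48 mice had a median r of 0.04 over the members and 0.06 over 13312 genes. Of the 35 members, 3 had an unadjusted permutation p under 0.05. These permutations also ignored the groups whose means were taken out, so their p-values come out too small. Ctsc was highest (r = 0.43, rho = 0.35, permutation p = 0.0024 and 0.015, unadjusted). Its r was 0.29 without the 2 mice farthest from the median in islets, and 0.36 and 0.50 within CD and HFD mice.

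Other lysosomal genes were counted from lists chosen with earlier results of these data known. Of 22 other hydrolases, 11 were higher and 4 lower in HFD liver, among them the arylsulfatase Arsa at 0.59 ± 0.08 and the GM2 activator Gm2a at -0.28 ± 0.06. In islets 10 were higher and 1 lower, from the phospholipase Pla2g15 (0.22 ± 0.03) to Galns (-0.22 ± 0.04). Of 14 other membrane proteins and transporters, 11 were higher and none lower in liver, led by Cd63 (1.22 ± 0.15) and the macrophage protein Cd68 (0.93 ± 0.13), and 7 were higher and 1 lower in islets, from Cln3 (0.31 ± 0.03) to the calcium channel Tpcn1 (-0.27 ± 0.04). The 14 other proton pump subunits gave 10 higher and none lower in liver and 9 higher and 1 lower in islets, with Atp6v0e at 0.29 in both tissues. Of 7 genes of the mannose 6-phosphate and sortilin sorting routes, 5 were higher in liver and 3 in islets, where Sort1 was lower (-0.12 ± 0.03). For MiT-TFE factors and partners, 4 of 8 tested were higher in liver and 3 in islets with 1 lower, and for autophagy adaptors and the LC3 family 4 of 10 and 3 of 10 were higher, with Gabarapl1 leading in both (0.24 ± 0.07 and 0.25 ± 0.03). Among all genes, 35.8% were higher and 6.78% lower in liver, and 16.6% and 22% in islets. The liver count of the autophagy list, 4 of 10, is near that share.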

How the data were processed

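Poly(A) RNA of islets (isolated by collagenase, hand-picked) and liver of the same 48 mice was sequenced on a BGISEQ-500 instrument, and the 96 libraries were grouped by tissue, diet and week from their labels. The authors deposited FPKM per gene and library, rounded to 2 decimals, and the submitters' processing notes name HISAT2 2.0.4, Bowtie2 2.2.5, RSEM 1.1.12, DESeq2 and GRCm38.p5 without their roles. Whether counting used strand is not given in the sources used here. Columns of the authors' own comparisons (log2 ratios, p-values and q-values by DEGseq), group means and network modules were not used. The smallest value above 0 was 0.01 in every library, so whole reads could not be recovered and limma replaced the count test foreseen for counts.

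FPKM were transformed to log2(FPKM + 1). Limma 3.58.1 in R 4.3.3 (trend, robust, two-sided) compared diets at each week (8 libraries), the mean effect over 6 weeks and late minus early weeks (48 libraries), and the tissues (96 libraries), with Benjamini-Hochberg adjustment over all genes that reached 1 FPKM in 4 or more libraries (3 of the 7 where 1 library of a week was left out). Correlations and promoter searches used Python 3.11.15 with numpy 2.4.6 and pandas 2.3.3, and the figures matplotlib 3.10.9. The scripts were tested on simulated data. Promoter windows came from RefSeq tables of GRCm38.p6, matched by symbol. The tissues of a mouse share its identifier, so the pairing comes from the same animal. Their deviations from the group means correlated at -0.052 to 0.239 over genes, with a median of 0.117, and 26 of 48 mice were over 0.1.

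The members and lists were chosen with earlier results of these data known. All members are accounted for. Some genes of the other lists are counted but not reported singly here. Values by mouse are given for members called at 3 or more weeks of a tissue and for some of the members with the largest or smallest mean effect of a role. The week shown is not always that of the lowest p, and some weeks were added after their values were seen. Other members are shown by mouse too, and several with the largest or smallest effect of a role are not. The values shown therefore lean toward called members. Alternatives were another pseudocount, no filter, a fold minimum, median ratio scaling, insulin left out of the islet total, all groups in 1 fit, a replicate block, and leaving out libraries or weeks. Added after seeing the data were fits without libraries that stand apart and with marker lists as covariates. Several members overlap other genes in the table's coordinates, among them Ctsa (Pltp, Neurl2), Ctsb (Fdft1), Ctsd (Ifitm10), Ctsz (Nelfcd), Hexa (Tmem202), Glb1 (Tmppe), Ppt1 (Cap1), Asah1 (Frg1) and Atp6ap1 (Taz). Reads of the shared bases cannot be told apart where strand was not used. For Ctsd, Glb1, Asah1 and Atp6ap1 the overlapping gene lies on the same strand, so strand would not separate them either. Genes that the table lists over 61.2 to 150 megabases, such as Serpina1d across Lgmn and Npc2, were not counted as overlaps.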

Additional observations from a re-analysis of the deposited data

Results flagged for a closer look

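Of the groups of 4 mice examined for members with values by mouse, 7 (6.73%) held a mouse far from its group, and chance gives this in about 1 in 20 groups. In islets these were Hexa at 128.83 FPKM (HFD, week 24), Psap at 619.93 FPKM (HFD, week 20) and Tfeb at 3.49 FPKM (HFD, week 20). In liver they were Hexa at 61.12 FPKM (HFD, week 16), Ppt1 at 13.46 FPKM (CD, week 24), Psap at 175.9 FPKM (HFD, week 8) and Scarb2 at 35.17 FPKM (HFD, week 12). The low Psap and Tfeb values in islets at week 20 belong to the same mouse, HFD511.

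For 17 of 35 members (48.6%) the HFD effect differed between the tissues by the test of the difference itself (limma, adjusted p under 0.05). This is near the share of all genes, 43.9%. The share with a larger effect in liver, 31.4%, was under the 35.5% of all genes. The liver effect exceeded the islet effect on the log2 scale for Ctss (0.57), Ctso (0.50), Ppt1 (0.45), Hexa (0.42), Ctsz (0.32), Lgmn (0.32), Psap (0.31), Ctsk (0.22), Asah1 (0.21), Lamp1 (0.15) and Atp6ap1 (0.14). Asah1, Lamp1 and Atp6ap1 were not called with median ratio scaling or with insulin left out, and Ctsk passed the filter through HFD liver, the group in which it is high. The effect was smaller for Scarb2 (-0.14), Glb1 (-0.16), Gaa (-0.19), Neu1 (-0.20), Ctsl (-0.21) and Atp6v0d2 (-0.34). Of the macrophage markers, 8 of 10 were higher in HFD liver and 2 of 8 tested in HFD islets, against 35.8% and 16.6% of all genes. In islets 6 of 6 alpha and delta cell markers were lower, against 22% of all genes. The part of these cell types in the differences between tissues was not tested.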

How the results depend on the processing

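The members called over all weeks kept their direction under every alternative run, and their number was 17 to 23 in liver and 22 to 30 in islets, apart from the fold minimum. The weekly counts moved with most settings, and the cause was not tested except where fewer samples or the setting itself gives it. A minimum absolute log2 difference of 1 left 0 weekly calls in islets (0 at each of weeks 8, 12, 16, 20 and 24) and 4 in liver (2 at week 16, 2 at week 20, 0 at weeks 8 and 12), 0 members for the mean effect in either tissue, 18 between tissues in CD mice and 0 for the difference of effects. With no filter on low values, more genes were tested: the counts were 0 at week 8 and 1 at week 20 in islets, 2 for late minus early weeks in islets, and in liver 17 in all, 2 at week 8, 5 at week 12 and 1 at week 20. With median ratio scaling they were 7, 6 and 2 at weeks 12, 20 and 24 in islets, 5 at week 12 in liver and 1 for late minus early weeks in liver. With insulin left out of the islet total there were 55 weekly islet calls, with 23 at week 12 and 21 at week 16. With all 12 groups of a tissue in 1 fit, there were 45 weekly islet calls (3, 14, 4 and 9 at weeks 8, 12, 16 and 20) and 12 and 3 liver calls at weeks 20 and 24. In that fit, 9.09%, 42.4%, 12.1% and 27.3% of the islet members were called at weeks 8, 12, 16 and 20. Of all islet genes, 7.67%, 9.85%, 7.76% and 9.7% were called at these weeks. A pseudocount of 0.1 moved no count by more than 1.5 times.

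Without the libraries that stand apart, an alternative chosen after seeing the data, the counts were 8 at week 16 and 2 at week 24 in islets, and 5 at week 16 and 3 at week 20 in liver. The islet shares were 24.2% and 6.06% of the members, against 7.2% and 3.19% of all genes. For late minus early weeks, 4 islet members (12.1%, against 8.71% of all genes) were called without week 12 and 1 liver member without week 8. The other liver counts in this section are given without the share of all genes.

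With 1 library left out, the weekly islet calls ranged from 10 (without CD608 or HFD616) to 30 (without HFD511). By week they were 0 to 3 at week 8 (3 without HFD217, 0 without CD203, CD205, CD208, HFD211, HFD212 or HFD213), 0 to 8 at week 12 (8 without CD306, 0 without CD308, 1 without CD307 or HFD316), 0 to 8 at week 16 (8 without CD407, 0 without CD401, CD405 or HFD416, 1 without CD403, HFD411, HFD414 or HFD418), 0 to 14 at week 20 (14 without HFD511, 0 without any other) and 2 to 9 at week 24 (2 without CD608 or HFD616, 4 without CD605, 5 without HFD617, 6 without CD606 or HFD614). For late minus early weeks in islets they were 0 to 2 (2 without CD304 or HFD511, 1 without CD407, HFD118, HFD217, HFD411 or HFD617). In liver they were 2 to 6 at week 8 (2 without CD205, CD208, HFD211, HFD212 or HFD213), 1 to 9 at week 12 (1 without CD307, CD308, HFD315 or HFD318, 4 without CD306 or HFD313), 2 to 17 at week 16 (17 without HFD411, 2 without HFD414, 4 without HFD418, 5 without CD407 or HFD416), 1 to 12 at week 20 (12 without HFD518, 1 without CD502, CD505, CD507 or HFD516, 2 without CD501, 3 without HFD511 or HFD517) and 0 to 1 at week 24 (1 without HFD611). For late minus early weeks in liver they were 0 to 2 (2 without HFD518, 1 without CD101, CD106 or HFD614). Leaving out each library was not run for the fits of both tissues. The share of all genes called was not counted in these refits or with the fold minimum, so those counts cannot be set against all genes.

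The replicate block of the 2 tissues of a mouse (consensus correlation 0.053) gave 33 members between tissues in CD mice and 17 for the difference of effects, and changed no call. Single members that changed sign between the tissues of CD mice were Ctsd (-0.28), Lamp1 (-0.28), Man2b1 (-0.29) and Tpp1 (-0.21) with insulin left out, and Scarb2 (0.36), Ctsk (0.0054) and Ctss (0.014) with median ratio scaling. Npc2 in liver, not called without it, was -0.15 (adjusted p = 0.045, over all genes) with the macrophage list as covariate.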
